A study of Mus musculus with 18 samples.

Results

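The genes described here handle or respond to retinoic acid, and they were followed across 18 expression arrays of mouse embryonic stem (ES) cells. The 9 genes Cyp26a1, Crabp1, Crabp2, Rara, Rarb, Rarg, Dhrs3, Aldh1a2 and Stra6 of the 18193 genes with a probe set were chosen by name, and every probe set annotated to them was taken. This gave 10 probe sets of the 45101 on the array, 1 for each of 8 genes and 2 for Rarg, and 0 of them were annotated to a further gene. Total RNA of each sample was biotin-labelled and hybridised to 1 Affymetrix array, with 3 samples labelled as biological replicates in each of 6 groups. In 4 groups, cells of the feeder-independent mouse ES line CGR8 were transfected by lipofection with the empty vector, with a Foxd3 plasmid, with a plasmid labelled CA-NFATc3, or with both. Foxd3 is a forkhead transcription factor of pluripotent cells, and NFATc3 is a transcription factor that the phosphatase calcineurin switches on. The remaining groups were Foxd3fl/fl:Cre-ERT cells, in which tamoxifen releases the recombinase that removes the floxed Foxd3 alleles. They received tamoxifen for 2 days, or DMSO alone, labelled as 0 days, and their controls also carried the floxed alleles and the recombinase. The labels give these cells CGR8 as source name too, with the same protocols. The culture medium was GMEM with 10% serum, LIF was added, and Trizol was used to extract the RNA, per the labels' protocols. The time after transfection, the share of cells that took up a plasmid and any feeder cells of the knockout line are not stated in the sources.

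Retinoic acid is made inside cells from retinol, which Stra6 brings in from the blood's carrier protein. Retinol is oxidised to retinal and then, by Aldh1a2, to retinoic acid, while Dhrs3 turns retinal back into retinol. Crabp1 and Crabp2 bind retinoic acid in the cytoplasm, Crabp2 delivering it to the nucleus, and Cyp26a1 oxidises it for removal. The receptors Rara, Rarb and Rarg sit on DNA with an RXR partner and turn genes on when the acid binds. Cyp26a1, Rarb, Crabp2, Dhrs3 and Stra6 are known targets of these receptors, and retinoic acid is a standard agent for pushing ES cells out of self-renewal.

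Signals are MAS5 intensities on a linear scale, with no unit, and each array had a trimmed mean of 500. A signal of 65.8, the median of all deposited values, is used below as the floor under which a signal is read only as low. Changes are differences of log2(signal + 32), so that folds of low genes are understated, and each is given with its standard error (SE). A fold is taken from such a change, so it is smaller than the ratio of the printed signals. A fold given as "at least" is instead a ratio of mean signals, with signals of the lower group raised to the floor. Genes were tested with limma if they reached the floor in at least 3 arrays of the fit, and a gene was called at a Benjamini-Hochberg adjusted p under 0.05 over all genes tested. In the transfected cells 11609 genes were tested and in the knockout cells 12093. Of the 9 genes, 7 were tested in the transfected cells and 5 in the knockout cells. Array medians were 55.2 to 67.1 in the transfected and 73.0 to 80.7 in the knockout cells, and replicates correlated at r = 0.981 to 0.988 across genes. The probe set of Foxd3 went against the label of its plasmid: it read 443 ± 55.9 with vector and 237 ± 5.95 in arrays labelled Foxd3 (SD, n = 3 each; log2 -0.81 ± 0.13, limma adjusted p = 0.00169). It read 219 ± 25.9 with DMSO and 31.4 ± 29.6 with tamoxifen (adjusted p = 0.000146), and its place relative to the plasmid's insert and to the deletion is not stated in the sources. The Nfatc3 probe set did not pass the test with CA-NFATc3 (log2 0.13, adjusted p = 0.352), while Rcan1, a textbook target of NFAT factors, rose from 1196 to 3702 (log2 1.59 ± 0.11, adjusted p = 2.05e-07). With both plasmids Rcan1 read 1441, below CA-NFATc3 alone (-1.32 ± 0.11, adjusted p = 2.35e-06) and not called against vector (adjusted p = 0.224), and its interaction of the plasmids was -1.14 ± 0.16 (adjusted p = 0.0013). The Foxd3 probe set was also lower in the arrays labelled with both plasmids, at 234 ± 37.7 against 451 ± 38.6 with CA-NFATc3 alone (-0.87 ± 0.13, adjusted p = 0.000452). Below, "labelled Foxd3" and "both plasmids" are meant as labels only, and every direction drawn from them rests on those labels. P-values measure the spread between the samples labelled as biological replicates, and in RNA of whole cultures fewer cells of a type and less RNA per cell cannot be told apart.

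The degrading enzyme Cyp26a1 was bright in a single group. Its signals were 17.9, 5.23 and 3.95 with vector, 1.74, 4.76 and 14.2 in the arrays labelled Foxd3, and 483, 372 and 595 with CA-NFATc3. With both plasmids they were 27.9, 51.0 and 22.3. In the knockout line they were 13.0, 8.75 and 41.1 with DMSO and 33.5, 32.7 and 14.1 with tamoxifen. The 3 CA-NFATc3 arrays were thus the 3 of 18 at or above the floor, and the other 15 arrays have no order among themselves. Against vector, CA-NFATc3 raised Cyp26a1 at least 7.34-fold, taking the floor for the vector group (log2 3.64 ± 0.24, 95% interval 3.13 to 4.16, limma adjusted p = 1.27e-07). With both plasmids the signal fell back under the floor, at least 7.34-fold below CA-NFATc3 alone (log2 -2.97 ± 0.24, adjusted p = 2.11e-06). Cyp26a1 entered the test only through its CA-NFATc3 arrays, so that a difference of that group from the others was a condition of being tested. With no filter and 1 CA-NFATc3 array left out at a time, the change against vector was 3.49 to 3.81, with adjusted p = 6.53e-07 to 2.43e-06.

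The promoter of Cyp26a1 is shown because it carries the retinoic acid receptor's textbook site, a direct repeat of a 6-base core spaced by 5 bases, called DR5. RefSeq promoter windows of the 250 bases before a start (build GRCm38.p6) were searched on both strands for DR5 with the core AGGTCA, allowing also G in place of its A at the start and T in place of its inner G. A match was found in 29 of 32851 windows (0.0883%). Of the 9 genes, 8 had windows in the table, 17 in all, and Crabp2 had none. DR5 was in 2 of the 17 windows, 1 of Cyp26a1 (chr19:37697558-37697807, plus strand, the repeat lying 32 to 16 bases before the start and reading on the minus strand) and 1 of Rarb (chr14:16575477-16575726, minus strand, 53 to 37 bases before the start). Both are printed 5′ to 3′ in the direction of the gene, with the 2 cores in capitals.
Cyp26a1: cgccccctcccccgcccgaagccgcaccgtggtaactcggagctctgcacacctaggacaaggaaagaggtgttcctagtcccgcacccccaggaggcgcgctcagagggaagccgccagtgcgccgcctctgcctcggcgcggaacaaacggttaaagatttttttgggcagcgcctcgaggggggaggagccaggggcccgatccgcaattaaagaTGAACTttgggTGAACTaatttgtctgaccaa
Rarb: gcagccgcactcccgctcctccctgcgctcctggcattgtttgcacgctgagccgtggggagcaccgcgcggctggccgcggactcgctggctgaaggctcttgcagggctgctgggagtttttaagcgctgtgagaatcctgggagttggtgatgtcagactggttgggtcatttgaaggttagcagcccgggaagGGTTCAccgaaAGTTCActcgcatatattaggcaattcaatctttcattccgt
The string GGAAAA, a longer form of the NFAT core GGAAA, was on either strand in 4 of the 17 windows, against 20.4% of all windows. They were 1 of Rara, 2 overlapping ones of Dhrs3 that hold the same match, and 1 of Stra6. The shorter GGAAA, which the printed Cyp26a1 window holds, was not counted. The forkhead core TGTTTA was in 0 of the 17 windows, against 3952 of all 32851. Strings that differ from it by 1 base, such as TGTTTG in the printed Rarb window, were not counted. A match is a string of letters and does not show binding. Cyp26a1 and Rarb, which share the DR5 letters, had different signals across the arrays: Cyp26a1 rose with CA-NFATc3, and Rarb was under the floor in every transfected array.

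Crabp2, the carrier that hands retinoic acid to the receptors, had 4 separate levels across the transfected groups. Its signals were 131, 89.6 and 136 with vector, 309, 172 and 238 in the arrays labelled Foxd3, 451, 327 and 444 with both plasmids and 1136, 904 and 1460 with CA-NFATc3. The group means were 119 ± 25.5, 239.8 ± 68.7, 407 ± 69.4 and 1167 ± 279 (SD, n = 3 each), and no array of a group reached the range of the next. CA-NFATc3 raised Crabp2 7.88-fold over vector (log2 2.98 ± 0.20, 95% interval 2.55 to 3.41, limma adjusted p = 1.67e-07). With both plasmids it was 2.91-fold over vector (1.54 ± 0.20, adjusted p = 0.000272) and 2.70-fold below CA-NFATc3 alone (-1.44 ± 0.20, adjusted p = 0.000361). The arrays labelled Foxd3 stood 1.78-fold over vector (0.83 ± 0.20, 95% interval 0.40 to 1.26, adjusted p = 0.0381). That last call was lost without any 1 of vector replicates 1, 2 and 3, Foxd3 replicates 1 and 3 or replicate 3 of both plasmids (adjusted p = 0.0512 to 0.164), and the range over all its alternatives was 0.000668 to 0.164. The neighbours in the order that did not differ by the test were both plasmids and Foxd3 (0.71 ± 0.20, 95% interval 0.28 to 1.14, adjusted p = 0.32), where a block for the replicate number gave adjusted p = 0.00968. In the knockout line Crabp2 read 296, 345 and 424 with DMSO and 286, 344 and 314 with tamoxifen, which overlap.

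The interaction of the plasmids asks whether the response to CA-NFATc3 differs between the arrays labelled with Foxd3 and those without it. It was negative for Cyp26a1 (log2 -2.90 ± 0.34, 95% interval -3.62 to -2.17, limma adjusted p = 0.000509) and for Crabp2 (-2.27 ± 0.29, 95% interval -2.88 to -1.66, adjusted p = 0.00099). The difference that goes with CA-NFATc3 was thus smaller for both genes in the arrays labelled Foxd3. For Crabp2 the arrays labelled Foxd3 were themselves above vector (0.83 ± 0.20), which adds to the negative term. The rest of it is the fall of both plasmids below CA-NFATc3 alone (-1.44 ± 0.20). These were 2 of the 7 genes tested, called lower, against 0.810% of all genes called in either direction, 0.0861% higher and 0.724% lower. Since Cyp26a1 could be tested only through its CA-NFATc3 arrays, nothing is read from its place in this count. Without the offset of 32, the Cyp26a1 interaction was -3.35 with an adjusted p of 0.304, and 3 of its 4 groups lie under the floor.

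**Figure D1:**
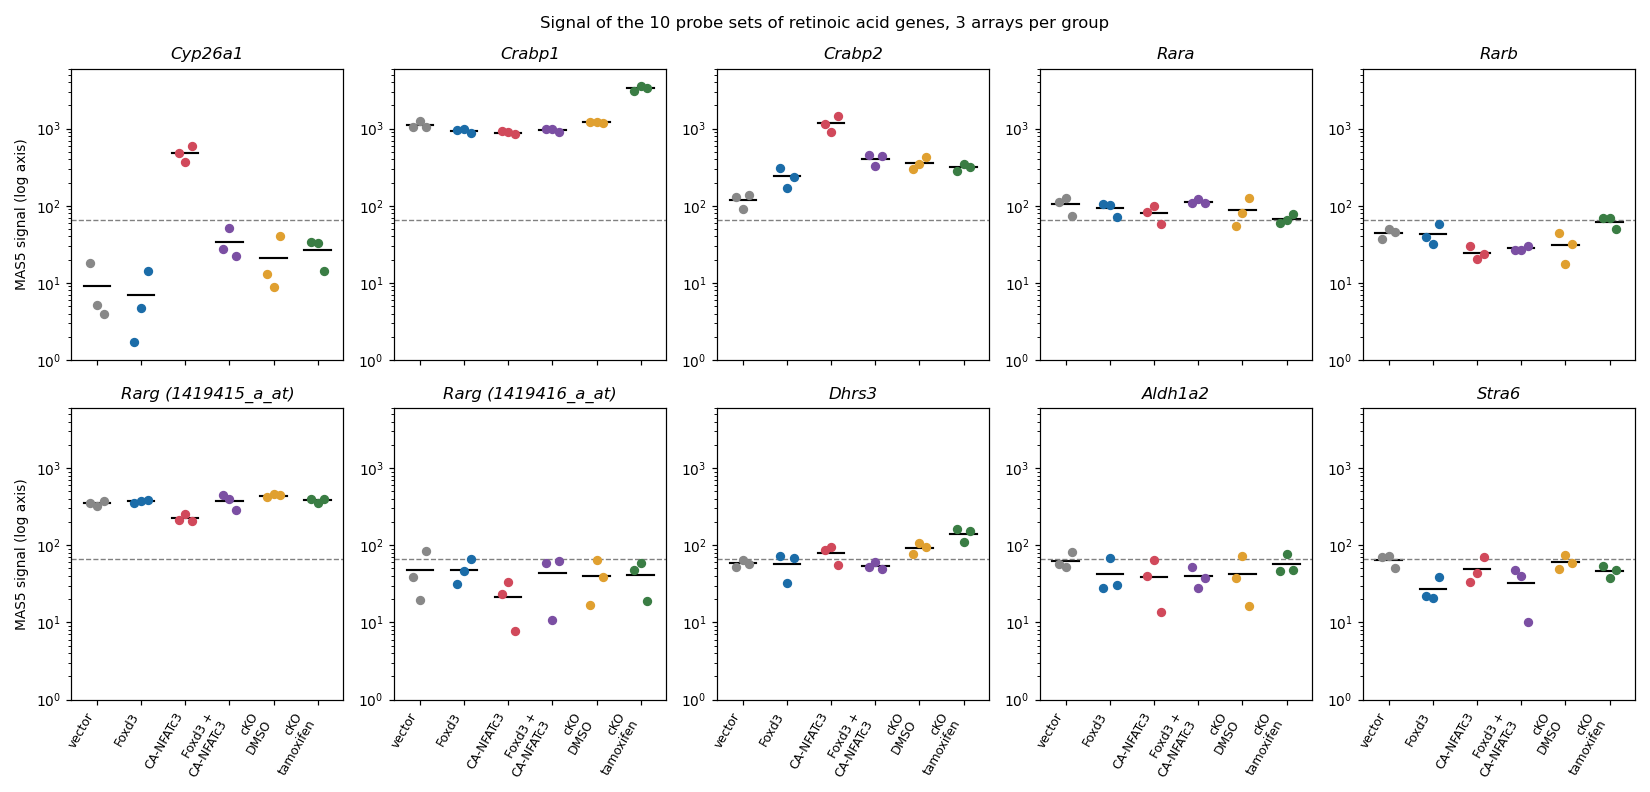
Signal of the 9 genes on a log axis in each of the 18 arrays, 1 panel per probe set, with 2 for Rarg, the first being the brighter; points are arrays, bars are group means, n = 3 per group, and the dashed line is the floor of 65.8. Cyp26a1 is above the floor in the 3 CA-NFATc3 arrays alone, and Crabp1 is highest in the 3 tamoxifen arrays, at 3087 to 3594.

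Crabp1, the carrier linked to storage and breakdown of retinoic acid, was above the floor in all 18 arrays and moved in the knockout line. Its signals were 1229, 1222 and 1181 with DMSO and 3087, 3594 and 3380 with tamoxifen. Every tamoxifen array was far above every DMSO array. The rise was 2.72-fold (log2 1.44 ± 0.07, 95% interval 1.30 to 1.59, limma adjusted p = 3.65e-08). Crabp2, its relative, did not pass the test in the same arrays (-0.15, adjusted p = 0.420). In the transfected cells Crabp1 read 1063, 1250 and 1035 with vector, 961, 993 and 864 in the arrays labelled Foxd3, 934, 895 and 840 with CA-NFATc3 and 984, 982 and 892 with both plasmids. All 9 arrays that received a plasmid other than the empty vector were below the 3 vector arrays. None of the 3 differences passed the test: -0.24 ± 0.09 for Foxd3 (adjusted p = 0.231), -0.31 ± 0.09 for CA-NFATc3 (adjusted p = 0.0602) and -0.22 ± 0.09 for both (adjusted p = 0.229), and the 3 share the vector arrays. With a block for the replicate number, that of CA-NFATc3 was called (adjusted p = 0.00874).

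Among the receptors, Rarg was lower with CA-NFATc3. Its brighter probe set was above the floor in all 18 arrays. Its signals were 358, 324 and 372 with vector, 355, 371 and 387 in the arrays labelled Foxd3, 211, 252 and 204 with CA-NFATc3 and 446, 395 and 287 with both plasmids. The CA-NFATc3 arrays lay below all 9 others, which overlapped one another. Against vector the fall was 1.51-fold (log2 -0.59 ± 0.14, 95% interval -0.89 to -0.30, limma adjusted p = 0.0169), and with both plasmids Rarg was 1.59-fold above CA-NFATc3 alone (0.67 ± 0.14, adjusted p = 0.00816). The fall was not called without vector replicate 1 or 3 or CA-NFATc3 replicate 1 or 3 (adjusted p = 0.0555 to 0.0987). When both Rarg probe sets were averaged, adjusted p was 0.153 for the fall and 0.144 for the difference of both plasmids from CA-NFATc3, and the dimmer probe set reached the floor in 2 of 18 arrays. The interaction of Rarg was 0.59 ± 0.20 (95% interval 0.17 to 1.01) and did not pass the test (adjusted p = 0.281).

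Rara, the receptor found in most tissues, stayed close to the floor and was called by limma in 0 of the comparisons, also at an unadjusted p under 0.05. Its signals were 113, 125 and 74.6 with vector, 106, 103 and 72.5 in the arrays labelled Foxd3, 83.1, 100.4 and 57.4 with CA-NFATc3 and 109, 121 and 109 with both plasmids. All transfected groups overlapped except both plasmids, whose 3 arrays were above those labelled Foxd3 and those of CA-NFATc3. The largest difference between groups was that of both plasmids from CA-NFATc3 (0.39 ± 0.20, limma adjusted p = 0.345). In the knockout line Rara read 54.5, 80.8 and 125 with DMSO and 59.3, 64.4 and 77.3 with tamoxifen. Rarb, the receptor gene that retinoic acid itself turns on, read 37.3, 50.5 and 46.2 with vector, 39.2, 31.5 and 58.6 in the arrays labelled Foxd3, 30.4, 20.2 and 23.7 with CA-NFATc3 and 26.8, 26.6 and 30.4 with both plasmids. No transfected array was at the floor, so Rarb was not tested there, and these values bear no order. With tamoxifen 2 of its 3 signals were at the floor or above, 68.9, 68.4 and 50.1, against 43.9, 17.8 and 31.8 with DMSO. Tested with no filter, this difference was 0.60 ± 0.22 with an adjusted p of 0.0803.

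Of Stra6, Dhrs3 and Aldh1a2, which act on the precursors of retinoic acid, 0 were called by limma in any comparison. Stra6 had an unadjusted p under 0.05 in 2 comparisons, and Dhrs3, which turns retinal back into retinol, in 1. Dhrs3, the retinal reductase, read 77.6, 107.9 and 94.5 with DMSO and 161, 109 and 154 with tamoxifen (means 93.3 ± 15.2 and 141 ± 28.4, SD, n = 3 each). The lowest tamoxifen array was just above the highest DMSO array, and the difference did not pass the test (log2 0.46 ± 0.18, 95% interval 0.07 to 0.85, limma adjusted p = 0.0675). It was called without tamoxifen replicate 2 (adjusted p = 0.0392). In the transfected cells Dhrs3 read 52.7, 63.7 and 57.7 with vector and 87.9, 94.5 and 55.5 with CA-NFATc3, which overlap (0.29, adjusted p = 0.603). Stra6, the retinol transporter, read 71.4, 73.2 and 50.4 with vector, 22.1, 20.4 and 38.8 in the arrays labelled Foxd3, 33.6, 44.2 and 71.3 with CA-NFATc3 and 48.1, 40.5 and 10.0 with both plasmids. Only 3 of its 12 transfected arrays reached the floor, and its difference between Foxd3 and vector was -0.72 ± 0.27 (adjusted p = 0.22). Aldh1a2, the enzyme of the last step of synthesis, ranged from 13.6 to 82.0 over all arrays and reached the floor in 2 of 12 transfected and 2 of 6 knockout arrays. It was not tested, and with no filter its adjusted p was at least 0.512 in every comparison.

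**Figure D2:**
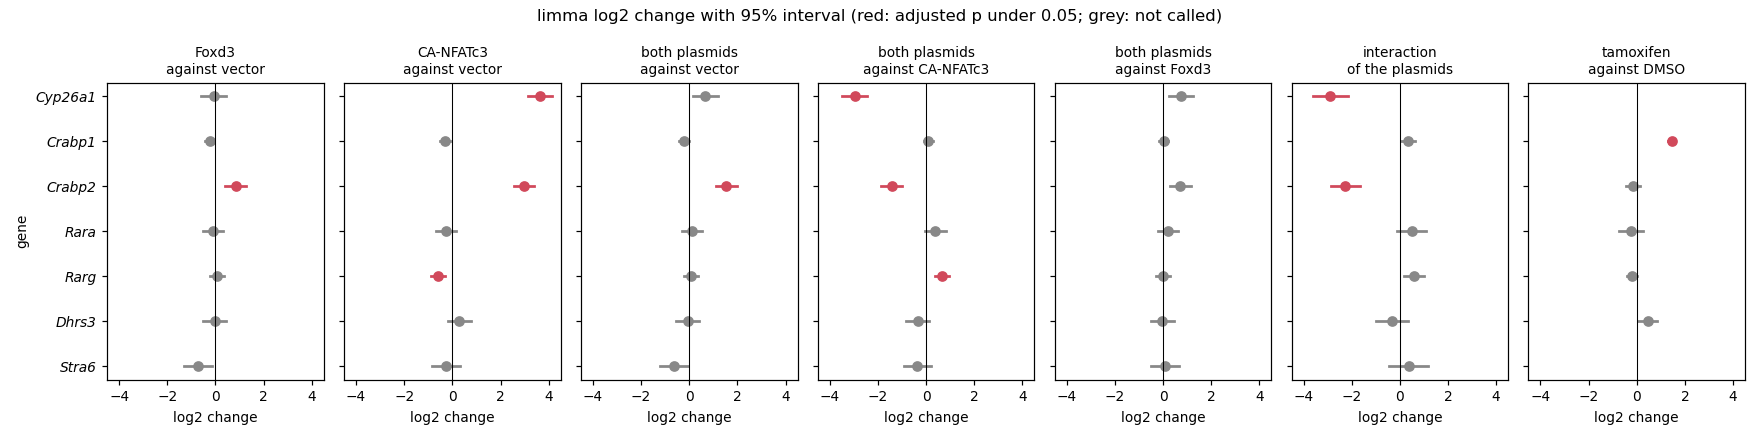
Log2 change of signal + 32 of each gene tested, with its 95% interval, in the 7 comparisons; red points passed the limma test at an adjusted p under 0.05. With CA-NFATc3, Cyp26a1 and Crabp2 stand at 3.64 and 2.98 and Rarg at -0.59, and with tamoxifen Crabp1 stands at 1.44.

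Counted over the 7 genes tested, the arrays labelled Foxd3 had 1 gene higher than vector and 0 lower, against 2.88% of all genes called, 1.71% higher and 1.17% lower. CA-NFATc3 had 2 higher and 1 lower, against 5.86% called, 4.62% higher and 1.24% lower. Cyp26a1, tested only through its CA-NFATc3 arrays, is 1 of these and 1 of the lower genes in the comparison of both plasmids with CA-NFATc3, and nothing is read from its place in either count. Both plasmids had 1 higher than vector, against 4.82% called, 3.48% higher and 1.34% lower. Relative to CA-NFATc3 alone, both plasmids had 1 higher and 2 lower, against 6.12% called, 2.44% higher and 3.69% lower. Relative to Foxd3, 0 of the 7 were called by limma, against 0.327% of all genes, 0.319% higher and 0.00861% lower, although 2 had an unadjusted p under 0.05, Crabp2 and Cyp26a1 (0.75 ± 0.24, adjusted p = 0.462). In the knockout line 1 of the 5 genes tested was higher with tamoxifen, where 34.4% of all genes were called, 17.5% higher and 16.9% lower, so that this share is no result about these genes. Groups that do not overlap are common here. Over all genes tested, they were 20.0% between Foxd3 and vector, 20.0% between CA-NFATc3 and vector, and 22.3% between both plasmids and vector. The share was 20.4% between both plasmids and CA-NFATc3, 11.3% between both plasmids and Foxd3, and 47.4% with tamoxifen. The median change of all genes was between -0.01 and 0.01 in each comparison.

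Over the 12 transfected arrays Cyp26a1 and Crabp2 ran together (Pearson r = 0.90 on the log2 scale), and Rarg ran against both (r = -0.85 and -0.73). These r describe 4 groups of 3 arrays that share their group differences. By the same measure, the genes most like Cyp26a1 were F2r, a thrombin receptor (r = 0.99), S100g, a calcium-binding protein (0.99), and Slc40a1, the iron exporter ferroportin (0.98). F2r went from 2732 with vector to 9297 with CA-NFATc3 and 3758 with both plasmids, and Slc40a1 from 106 to 516 and 167. Most like Crabp2 were Fhl2, a LIM-domain cofactor (0.99), Col4a1, a basement membrane collagen (0.97), and Psen2, a presenilin (0.96). Col4a1 read 314 with vector, 533 in the arrays labelled Foxd3, 769 with both plasmids and 2713 with CA-NFATc3, the same order as Crabp2. Crabp1, whose transfected groups differed little, was most like Csad (0.94), Zfp654 (0.93) and Phc1 (0.89).

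Markers of other cell types moved in the same arrays as Cyp26a1 and Crabp2. Of 9 trophoblast markers 7 were tested, and 4 were higher with CA-NFATc3 than with vector, where 4.62% of all genes were called higher. They were Eomes (111 to 520.0), Elf5 (13.7 to 157), Krt19 (92.9 to 594) and Hand1 (49.2 to 117). Their summed signal was 875 to 1098 with vector, 1047 to 1198 in the arrays labelled Foxd3, 1943 to 2601 with CA-NFATc3 and 1231 to 1406 with both plasmids, while Cdx2 and Gata3 were under the floor in every vector and every CA-NFATc3 array. Elf5 and Hand1 were under it in every vector array and not with CA-NFATc3. With both plasmids 3 were lower than with CA-NFATc3 alone, Eomes, Elf5 and Krt19, against 3.69% of all genes called lower. Elf5 was also under the floor in every array labelled Foxd3 or both plasmids. It could thus be tested only through its CA-NFATc3 arrays, and nothing is read from its place in either count. Of 9 markers of primitive and visceral endoderm, 5 were tested and 2 were higher with CA-NFATc3, Sox17 and Dab2, and 2 were lower with both plasmids than with CA-NFATc3 alone, Sox17 and Sox7. Their sum was 522 to 652, 523 to 585, 838 to 1223 and 578 to 596 in the same order of groups, with Sox17, Pdgfra, Afp and Ttr under the floor in every vector array and Afp and Ttr in every CA-NFATc3 array. Of 9 fibroblast markers 5 were tested and 1, Col3a1, was higher, with sums of 387 to 470, 488 to 549, 617 to 779 and 954 to 999, and Col1a1, Lum, Dcn and Postn were under the floor in all transfected arrays. With both plasmids 2 of these 5 were higher than with vector, 1 than with CA-NFATc3 alone and 2 than in the arrays labelled Foxd3. The shares of all genes called higher there were 3.48%, 2.44% and 0.319%. The sum of 7 ES cell markers, all above the floor, was 92177 to 102446 with vector, 85022 to 90589 in the arrays labelled Foxd3, 89806 to 93321 with CA-NFATc3 and 82097 to 90134 with both plasmids. Against vector, 2 of the 7 were lower in the arrays labelled Foxd3, Klf4 and Esrrb, and 1 was lower with both plasmids, Esrrb. Of all genes 1.17% and 1.34% were called lower there. With CA-NFATc3 0 of the 7 were called by limma and 0 had an unadjusted p under 0.05. The sum of 6 neural progenitor markers was 1154 to 1279 with vector and 819 to 994 with CA-NFATc3, where 0 of 4 tested were called by limma, 3 having an unadjusted p under 0.05. With both plasmids the sum was 1036 to 1297, and 2 of the 4 were higher than with CA-NFATc3 alone, against 2.44% of all genes. The part of other cell types in the differences of Cyp26a1, Crabp2 and Rarg, and in those of the target genes given below, was not tested.

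In the knockout line the fibroblast markers moved in the same arrays as Crabp1. All 9 fibroblast markers were tested and all 9 were higher with tamoxifen, with a median log2 change of 2.10, where 17.5% of all genes were called higher and 16.9% lower. Their sum rose from 4816 to 6412 with DMSO to 22084 to 25031 with tamoxifen, where all 9 were above the floor in at least 1 array, and Lum was under it in every DMSO array. Lum could thus be tested only through its tamoxifen arrays, and nothing is read from its place in the count of 9. The sum of trophoblast markers was 10226 to 14498 with DMSO and 8121 to 9729 with tamoxifen (3 of 7 tested lower), that of endoderm markers 990 to 1232 and 1539 to 1746 (2 of 6 higher), and that of ES cell markers 77363 to 79625 and 71049 to 75085 (3 of 7 lower). That of neural markers was 794 to 849 and 880 to 949 (1 of 5 higher). Beside the shares of all genes, the counts of the lists other than fibroblasts are not read as movement of those cell types. The part of any of these cell types in the Crabp1 rise was not tested.

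**Figure D3:**
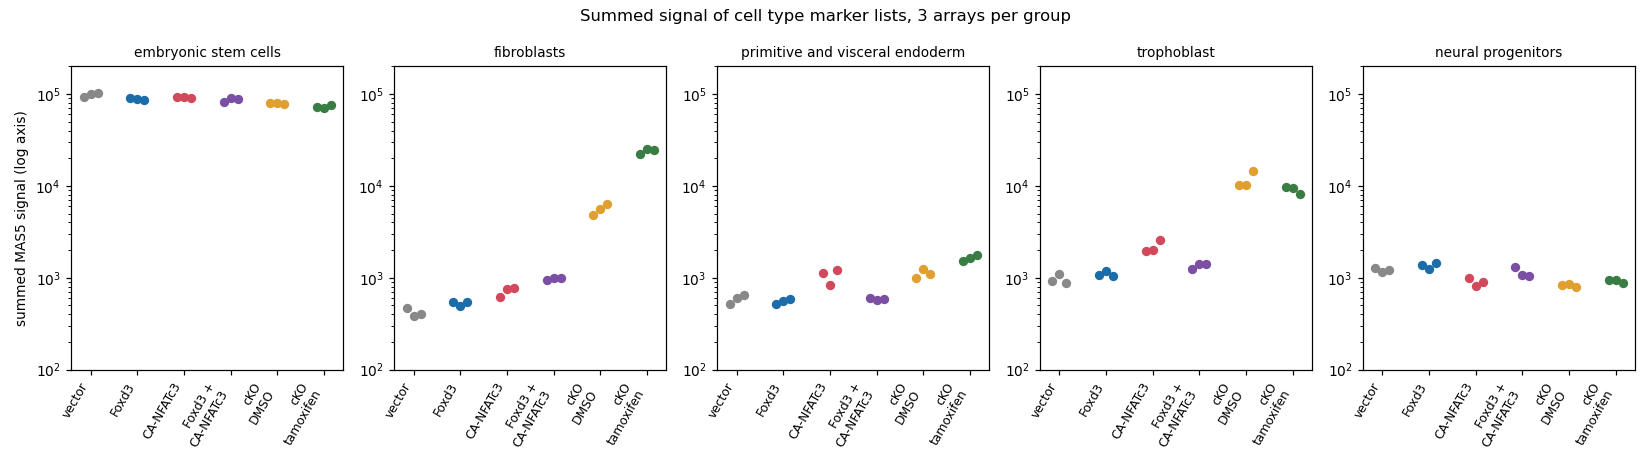
Summed signal of each list of cell type markers on a log axis in each of the 18 arrays, by group, n = 3 per group. The trophoblast sum is highest among transfected cells with CA-NFATc3, at 1943 to 2601, and the fibroblast sum is highest with tamoxifen, at 22084 to 25031.

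Other genes of the pathway were counted by list in the transfected cells. Of 20 genes of retinoid supply and storage, 18 were on the array and 8 were tested, and 0 were called by limma in any of the 6 comparisons (0 to 2 per comparison had an unadjusted p under 0.05), with list medians of -0.08 to 0.07. Of 23 receptor partners and cofactors 21 were on the array and 18 were tested, and 1 was called: Nrip1, a corepressor that ligand-bound receptors recruit, was higher with both plasmids than with vector (log2 0.42 ± 0.11, adjusted p = 0.0386). That call was lost when both plasmids' replicate 1, 2 or 3, vector replicate 1 or 3, Foxd3 replicate 3 or CA-NFATc3 replicate 3 was left out (adjusted p = 0.0508 to 0.179). With the mean of its probe sets the Nrip1 change was 0.15 and not called (adjusted p = 0.656). The call was also lost with no filter, only the compared groups or every probe set tested (0.0562 to 0.0777). Of the 4 genes of degradation and transfer only Fabp5, which carries retinoic acid to another nuclear receptor, was tested, and it was higher than vector in the arrays labelled Foxd3 (0.29 ± 0.06, adjusted p = 0.0137), with CA-NFATc3 (0.24 ± 0.06, adjusted p = 0.0254) and with both (0.23 ± 0.06, adjusted p = 0.0368). The first call was lost without vector replicate 3 or Foxd3 replicate 1 or 3 (adjusted p = 0.0675 to 0.0831) and the second without vector or CA-NFATc3 replicate 1 or 3 (0.0592 to 0.130). The last was lost without vector replicate 1 or 3, Foxd3 replicate 3 or any array of both plasmids (0.0547 to 0.166). Cyp26b1, the sister enzyme of Cyp26a1, was under the floor in every array, with group means of 4.72 to 31.2.

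Of 31 textbook genes that retinoic acid induces, 17 were tested in the transfected cells. With CA-NFATc3 1 of them was higher than vector and 1 was lower, with a list median of 0.12, where 4.62% of all genes were called higher and 1.24% lower. The higher one was Sox17, an endoderm factor (25.3 to 46.9 with vector and 99.97 to 208 with CA-NFATc3, at least 2.40-fold, adjusted p = 0.00152), which is also one of the endoderm markers above. The lower one was Stra8, the gene that starts meiosis under retinoic acid. Its signals ranged from 236 to 370 with vector, 276 to 330 in the arrays labelled Foxd3, 74.6 to 124 with CA-NFATc3 and 259 to 333 with both plasmids. The CA-NFATc3 arrays were below all others, and the fall was 2.59-fold (log2 -1.37 ± 0.18, adjusted p = 0.000114), so that Stra8 and Cyp26a1 moved in opposite directions in the same arrays. With both plasmids Stra8 was higher than with CA-NFATc3 alone (1.28 ± 0.18, adjusted p = 0.000285). Its interaction, 1.29 ± 0.25 (adjusted p = 0.0192), was lost without vector replicate 2 or 3, Foxd3 replicate 1 or replicate 3 of both plasmids (adjusted p = 0.054 to 0.0694).

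The arrays labelled Foxd3 had 3 of these 17 targets higher than vector and 1 lower, with a list median of -0.01, where 1.71% of all genes were called higher and 1.17% lower. Meis2, a homeobox cofactor of Hox proteins, went from 76.5 ± 4.75 to 229 ± 61.6 (log2 1.24 ± 0.18, adjusted p = 0.00111). Hoxb2, a hindbrain patterning gene, went from 21.4 ± 14.1 to 89.9 ± 34.7 (at least 1.37-fold, adjusted p = 0.0184), and Rec8, a meiotic cohesin, from 203 to 373 (0.81 ± 0.17, adjusted p = 0.0129). Hoxb2 was not called without vector replicate 1 or Foxd3 replicate 1 or 3 (adjusted p = 0.0612 to 0.0952), nor Rec8 without vector replicate 1 or 3 or Foxd3 replicate 3 (0.0598 to 0.0827). With both plasmids 3 were higher than vector and 1 lower, where the shares of all genes were 3.48% and 1.34%, the largest change being Hoxb2 at 172 ± 48.5 (1.94 ± 0.26, at least 2.62-fold, adjusted p = 0.000314). Hoxb3, its neighbour, was higher by 1.11 ± 0.25 (adjusted p = 0.0163) and Rec8 by 0.71 ± 0.17 (adjusted p = 0.0207). Hoxb3 was not called without vector replicate 3 or replicate 1 or 3 of both plasmids (adjusted p = 0.0546 to 0.091), nor Rec8 without vector replicate 1 or 3 or replicate 2 or 3 of both plasmids (0.0743 to 0.103). Tfap2c, an AP-2 factor named here after its values were seen, was the 1 lower gene against vector in the arrays labelled Foxd3 (-0.39 ± 0.10, adjusted p = 0.0477) and with both plasmids (-0.37 ± 0.10, adjusted p = 0.0444). Its first call was lost without vector replicate 1 or 2, Foxd3 replicate 1 or 3, CA-NFATc3 replicate 1 or any array of both plasmids (adjusted p = 0.0525 to 0.238). The second was lost without vector replicate 1 or 2, Foxd3 replicate 1 or any array of both plasmids (0.0526 to 0.167). With the mean of the Tfap2c probe sets both calls were lost too (adjusted p = 0.113 and 0.184). Against CA-NFATc3 alone, both plasmids had 7 targets higher and 2 lower, where the shares of all genes were 2.44% and 3.69%, with Hoxb2 (1.50 ± 0.26, adjusted p = 0.00188) and Hoxb3 (1.38 ± 0.25, adjusted p = 0.00256) changing most. Hoxb2 and Hoxb3 were under the floor in every vector and every CA-NFATc3 array. They could thus be tested only through arrays labelled Foxd3 or both plasmids, and nothing is read from their places in the counts of targets. The 2 lower ones, named after their values were seen, were Tfap2c (-0.48 ± 0.10, adjusted p = 0.00681) and Sox17 (-0.98 ± 0.25, adjusted p = 0.0275), and Sox17 was not called without CA-NFATc3 replicate 1 or 3 or replicate 2 or 3 of both plasmids (adjusted p = 0.0962 to 0.141). With the mean of its probe sets Sox17 was not called either (0.117). Of the higher ones, Efnb1 and Pax6 (adjusted p = 0.0485 and 0.0256) were also named after their values were seen. Efnb1 was not called without any 1 vector array, Foxd3 replicate 2, or replicate 1 or 3 of CA-NFATc3 or both plasmids (0.0542 to 0.203). Pax6 was not called without any 1 CA-NFATc3 array or replicate 1 or 3 of both plasmids (0.0623 to 0.109). These lists hold genes with many inputs other than retinoic acid, and the comparisons share arrays.

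With tamoxifen, 6 of 20 tested targets were higher and 1 was lower, with a list median of 0.16 beside -0.01 for all genes. Of all genes 34.4% were called, 17.5% higher and 16.9% lower, so that the counts called in the lists here are no result about them. Tfap2c went from 1362 ± 30.3 to 3217 ± 366 (log2 1.22 ± 0.08, adjusted p = 4.32e-07), Hoxb3 from 46.8 to 131 (at least 1.99-fold, adjusted p = 0.00209) and Zic1, a neural factor, from 57.7 to 151 (at least 2.29-fold, adjusted p = 0.000834). Hoxb3 was under the floor in every DMSO array. It could thus be tested only through its tamoxifen arrays, and nothing is read from its place in the count. Stra8, named here after its values were seen, was the lower one, from 600.2 ± 111 to 326 ± 36.1 (-0.81 ± 0.14, adjusted p = 0.000886). Of 20 partners and cofactors tested, 3 were higher and 1 was lower. Nr2f2, an orphan receptor that also binds retinoic acid response elements, rose from 38.4 ± 24.2 to 181 ± 40.3 (at least 2.75-fold, adjusted p = 0.000386), Nrip1 rose by 0.50 ± 0.08 (adjusted p = 0.0004) and so did the acetyltransferase Crebbp, named after its values were seen (0.40 ± 0.10, adjusted p = 0.00731), while Sin3a, a corepressor scaffold, fell by 0.41 on the log2 scale (adjusted p = 0.00326). Fabp5 rose by 0.35 ± 0.04 (adjusted p = 8.77e-05), and of the supply genes 1 of those tested was called, Adh5, an alcohol dehydrogenase (-0.23 ± 0.04, adjusted p = 0.00119). The Nrip1, Crebbp and Adh5 calls were lost with the mean of their probe sets (adjusted p = 0.15, 0.072 and 0.479). The rise of the fibroblast markers given above is in the same arrays, and its part in these changes was not tested.

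**Figure D4:**
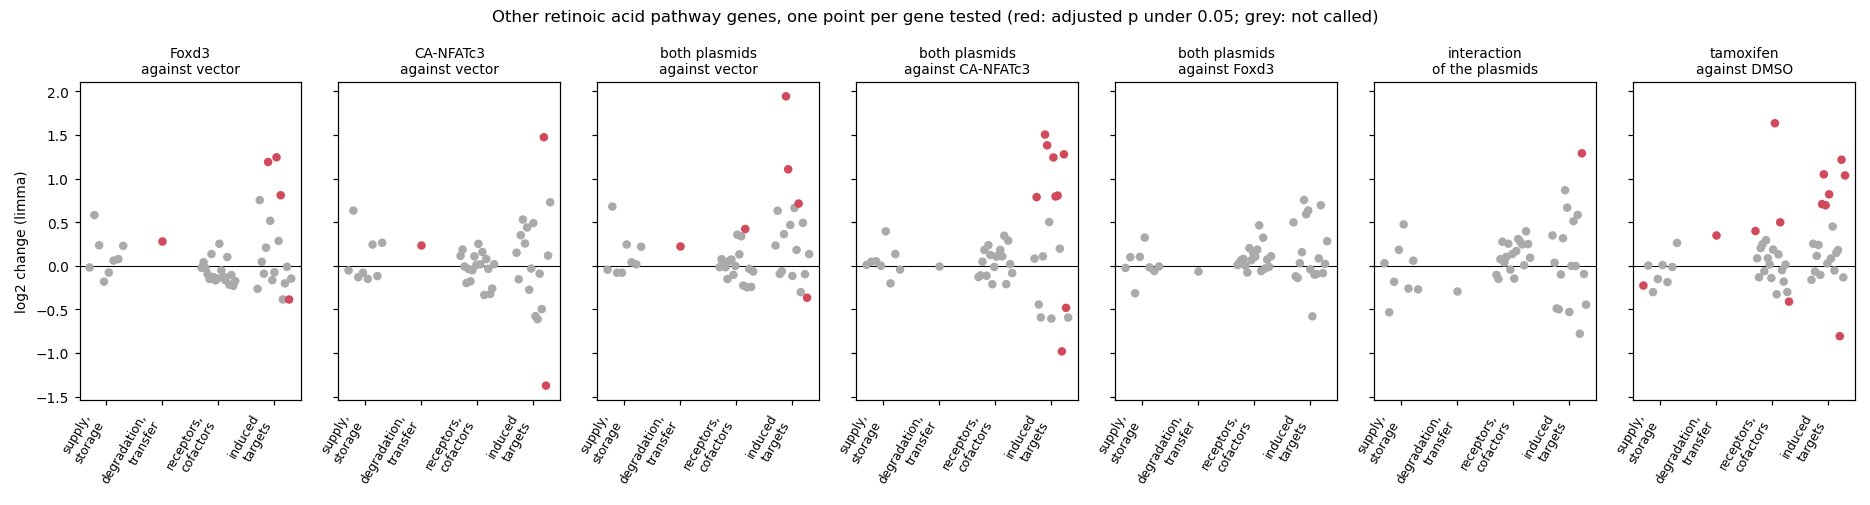
Log2 change of signal + 32 of each gene tested in the 4 lists of other retinoic acid pathway genes, by comparison; points are genes, red where the limma adjusted p was under 0.05. Most called points belong to the induced targets, 9 of them between both plasmids and CA-NFATc3, and supply and storage has 1, Adh5 with tamoxifen.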

How the data were processed

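Total RNA of 18 mouse ES cell samples was measured, 3 per group. The authors deposited 1 intensity per probe set, a linear signal from MAS5 (version not stated), per the submitters' processing notes. Trimmed by 2% at each end, every array's mean was 500.0. Background subtraction and detection calls behind a signal are not stated in the sources, and the number of arrays limits the precision. Of 45101 probe sets, 64 were controls and 34945 had 1 symbol in the platform's annotation, covering 18193 genes, with 34741 found by Entrez number in the gene table of GRCm38.p6.

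Of a gene's probe sets, that of the highest mean log2 signal stood for the gene. In R 4.3.3, limma 3.58.1 fitted log2(signal + 32) to group means with a trended eBayes, without covariates, separately for the 12 transfected and the 6 knockout arrays. Tests were two-sided. The transfected and knockout lines were not tested against each other. Where a group's mean was under the floor of 65.8, a fold against it took the mean of its arrays with each signal under the floor raised to it. Python 3.11.15 with matplotlib 3.10.9 drew the figures.

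The genes and lists were chosen with earlier results of these data known. Besides the 9 genes, the text names the called genes of 4 pathway lists, at most the 3 with the largest change per list and comparison, and the 3 genes nearest in pattern to each gene called with an absolute log2 change of at least 1. Exceptions are marked.

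Replicate numbers in the labels are shared by all groups. Residuals of same-numbered transfected arrays correlated at 0.104 to 0.315 over 18 pairs, and 12 of 12 arrays correlated best with their own number. By the data, the numbers thus pair these arrays. The main fits and their p-values did not use this pairing, and the replicate block was run as an alternative. Promoter windows and motifs come from RefSeq tables. Alternatives were another offset, filter, normalization, probe set rule, set of arrays, array weights, the replicate block, and each replicate left out. Scripts were tested on simulated data.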

Additional observations from a re-analysis of the deposited data

Results flagged for a closer look

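For 2 of the 7 genes tested, the difference that goes with CA-NFATc3 was not the same in arrays labelled with and without Foxd3. This is by the interaction term of the limma fit, which called 0.810% of all genes, 0.0861% higher and 0.724% lower. Cyp26a1 could be tested only through its CA-NFATc3 arrays, so nothing is read from its place in this count. Rcan1, the NFAT target given above, also had a negative interaction (-1.14 ± 0.16, adjusted p = 0.0013). The Foxd3 probe set itself was lower in both groups labelled with it (237 and 234, against 443 with vector and 451 with CA-NFATc3). For Cyp26a1 the interaction was -2.90 on the log2 scale (adjusted p = 0.000509), with the CA-NFATc3 signals of 372 to 595 set against signals under the floor in the other 9 transfected arrays. For Crabp2 it was -2.27 (adjusted p = 0.00099), with all 4 groups above the floor. Groups of 3 arrays are too small for a search for single outlying arrays.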

How the results depend on the processing

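The calls that held under every alternative run were those of Crabp2 with CA-NFATc3 and with both plasmids against vector, of Cyp26a1 and Crabp2 between both plasmids and CA-NFATc3, of Cyp26a1 with CA-NFATc3, of the Crabp2 interaction and of Crabp1 with tamoxifen. The filter drops Cyp26a1 when a CA-NFATc3 array is left out, so those fits were repeated with no filter, a choice made after seeing the data. The count of genes called in the arrays labelled Foxd3 against vector was 1, and was 0 with an offset of 64, no filter, only the compared groups or every probe set tested. For both plasmids against Foxd3 it was 0, and 1 with the replicate block, by Crabp2. The interaction's count was 2, and 1 with no offset. Leaving out 1 array at a time gave counts of 0 to 1 for Foxd3, 1 to 3 for CA-NFATc3, 1 to 1 for both plasmids against vector, 2 to 3 for both against CA-NFATc3, 0 to 0 for both against Foxd3, 1 to 2 for the interaction and 1 to 2 for tamoxifen. The block raised the CA-NFATc3 count from 3 to 4, by Crabp1, and beside these 2 gains changed no call of the 9 genes. The genes called among all tested rose with the block from 334 to 783 for Foxd3, 680 to 1104 for CA-NFATc3, 559 to 1122 for both against vector, 711 to 1258 for both against CA-NFATc3, 38 to 96 for both against Foxd3 and 94 to 245 for the interaction. In the knockout line same-numbered arrays correlated at -0.0425 to 0.0152 and 0 of 6 correlated best with their own number, so they share only a number, and the block gave 4027 genes in place of 4165. With array weights, changes near 0 turned sign for Cyp26a1 with Foxd3 (0.041), Rarg with both against vector (-0.0012) and Stra6 with both against Foxd3 (-0.066). Leaving out 1 array turned the sign of uncalled changes, with ranges for both against Foxd3 of -0.036 to 0.066 for Crabp1, -0.25 to 0.10 for Dhrs3, -0.13 to 0.17 for Rarg and -0.087 to 0.38 for Stra6. They were -0.20 to 0.075 for Cyp26a1, -0.17 to 0.19 for Dhrs3 and -0.27 to 0.023 for Rara with Foxd3 against vector, and -0.056 to 0.22 for Rara and -0.053 to 0.24 for Rarg with both against vector. The cause of these changes was not tested. Signals under the floor limit what Rarb, Aldh1a2, Stra6 and, outside the CA-NFATc3 arrays, Cyp26a1 can show.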
